A study of Mus musculus and Rattus norvegicus with 96 samples.

Results

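AML12 hepatocytes exposed for 10 min to 0.1% neutral buffered formalin (NBF) were compared with AML12 hepatocytes given vehicle. The 6 samples were chosen by their labels, 3 of 0.1% NBF (lysates 93, 95 and 96) and 3 of vehicle (lysates 87, 90 and 94), out of 96 samples in the series. The rest of the series was mouse and rat liver and rat lung, frozen or embedded after fixation, and 6 further AML12 samples, 3 of 0.006% NBF and 3 of 0.03% NBF, served to estimate the spread and to set the response against lower concentrations. AML12 is a mouse hepatocyte line derived from a CD-1 mouse that carried a human TGF-alpha transgene, and the labels give the cells as male, strain CD-1 and tissue liver. The vehicle was phosphate-buffered saline, applied for the same 10 min. All 12 samples were lysates of this 1 line, and nothing in the labels says that they came from separate cultures, so that p-values measure only the spread between these lysates, which may be technical. The labels do not say whether 0.1% refers to the diluted fixative or to formaldehyde itself.

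Formaldehyde, the active agent of formalin, reacts with amino groups of proteins and nucleic acids and links them to each other, which is how it preserves tissue. Cells also make small amounts of it and detoxify it through glutathione, by way of Adh5, and through aldehyde dehydrogenases, while the DNA-protein and DNA interstrand crosslinks it leaves are handled by the Fanconi anemia pathway and by excision repair. Cells under proteotoxic, oxidative or genotoxic stress typically induce immediate early, heat shock, unfolded protein response, Nrf2 and p53 target genes. In the assay used here, TempO-Seq, pairs of detector oligos of 25 nt anneal next to each other on an RNA in a crude lysate, are ligated where both are bound and are then amplified and counted, so that a count reads how often a probe pair was ligated rather than whole transcripts. The s1500+ mouse panel measured 2756 genes with 3045 probes.

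Total counts ranged from 444288 to 2325990 over the 12 libraries. The vehicle libraries held 535016, 1849994 and 2036429 counts and the 0.1% NBF libraries 2325990, 1364449 and 1552777 counts, and the means of the groups did not differ beyond this spread (exact two-sided permutation test, p = 0.8, where 3 against 3 cannot go below 0.1). Vehicle replicate 1 (lysate 87) was 1 of 4 libraries under 1000000 counts, all from lysates 85 to 88. The 3 libraries of 0.1% NBF came late in the lysate order, with vehicle replicate 3 (lysate 94) between them. Without the 4 shallow libraries 218 genes were called between 0.1% NBF and vehicle, and the part of the lysate order in it was not tested. Of the 12 libraries, those of 0.1% NBF stood apart on the first principal component, at 8.72, 16.8 and 15.8 against -10.1 to 1.19 for the other 9, and 0.1% NBF replicate 1 lay nearest to the others. Among the other 9, the shallow lysates 85 to 88 lay lowest, at -9.43, -5.05, -10.1 and -9.70. Lysates 89, 90, 91, 92 and 94 lay at -2.55, -3.25, 1.19, 0.024 and -2.47. The part of lysate order and depth in this component was not tested. By Pearson's r of log2 CPM, replicate 1 was closer to 0.006% NBF replicate 3 (0.986) than to 0.1% NBF replicates 2 and 3 (0.979 and 0.982). Its r with vehicle replicate 3 was 0.982, and that between 0.1% NBF replicates 2 and 3 was 0.986. Counts in CPM were scaled by trimmed mean of M-values (TMM) factors, which were 1.07, 1.13 and 1.09 in 0.1% NBF and 0.934, 0.972 and 0.960 in vehicle. Of 38 hepatocyte markers 19 had at least 1 count. Krt18, an epithelial keratin, had 20715, 21014 and 23878 CPM in vehicle and 23400.2, 13723 and 15819.8 CPM in 0.1% NBF. The transcription factor gene Cebpa had 100.2, 228 and 203 and 143, 123 and 146 CPM, whereas Alb, Apob, Cps1, Arg1 and Tat had no count in any library, which does not tell whether the panel targets them. Defining macrophage and endothelial markers were at or near 0, with Adgre1, Clec4f, Cdh5 and Stab2 at 0 in all 12 libraries. No count was seen for 8 of 12 macrophage and leukocyte markers and 4 of 9 endothelial markers. Here too, a 0 does not tell whether the panel targets the gene.

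**Figure D1:**
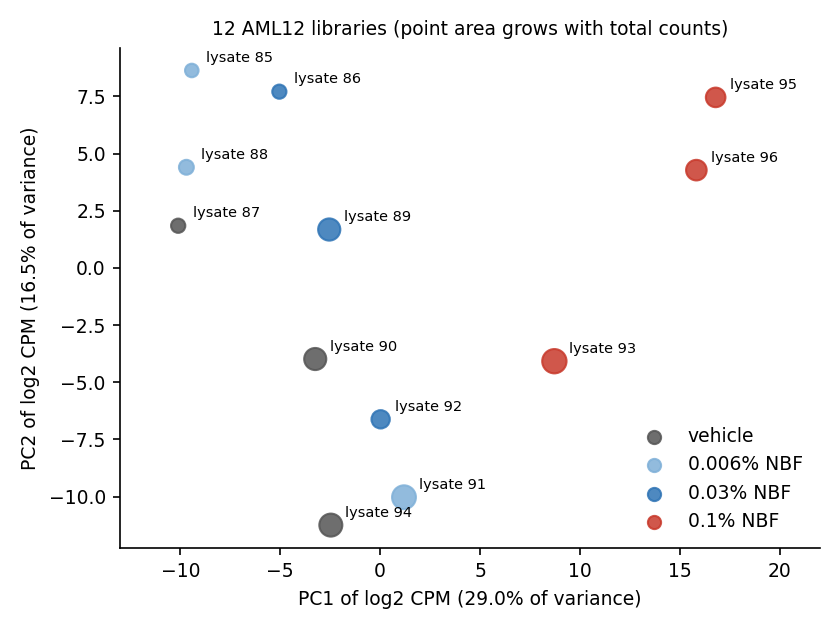
First and second principal components of log2 CPM for the 12 AML12 libraries, coloured by NBF concentration, each point 1 library with an area that grows with its total counts. The 3 libraries of 0.1% NBF lie at 8.72 or higher on the first component and the other 9 at 1.19 or lower.

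The first question was which genes differ between 0.1% NBF and vehicle after 10 min. Of 1570 genes with enough counts to be tested, 303 differed at an adjusted p under 0.05 (19.3% of genes tested; edgeR's quasi-likelihood test with Benjamini-Hochberg adjustment over all 1570). Of these, 168 were higher (10.7%) and 135 lower (8.6%) in 0.1% NBF. Requiring also a fold change of at least 2 left 76 differentially expressed genes (DEGs, 4.84%), 44 higher (2.8%) and 32 lower (2.04%). The absolute log2 fold change of the 303 genes had a median of 0.79 and ranged from 0.36 to 2.48. The 3 values of one group lay wholly above those of the other in 290 of the 303 genes, and in 591 of all 1570 (37.6%). The median log2 fold change of all genes was -0.0019 with TMM scaling. With total counts as the only scaling that median was 0.20, and 294 of 364 called genes (80.8%, against 55.4% with TMM) were higher. Directions given here are therefore relative to the median gene. The number of genes called ranged from 135, without 0.1% NBF replicate 3, to 360, without 0.1% NBF replicate 1, when 1 of the 6 libraries was left out. It was 136 without 0.1% NBF replicate 2, 186 without vehicle replicate 1 and 200 without vehicle replicate 2, and 114 of the 303 genes were called under each of the 6 omissions. DEGs numbered 39, 47 and 127 without 0.1% NBF replicates 2, 3 and 1.

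**Figure D2:**
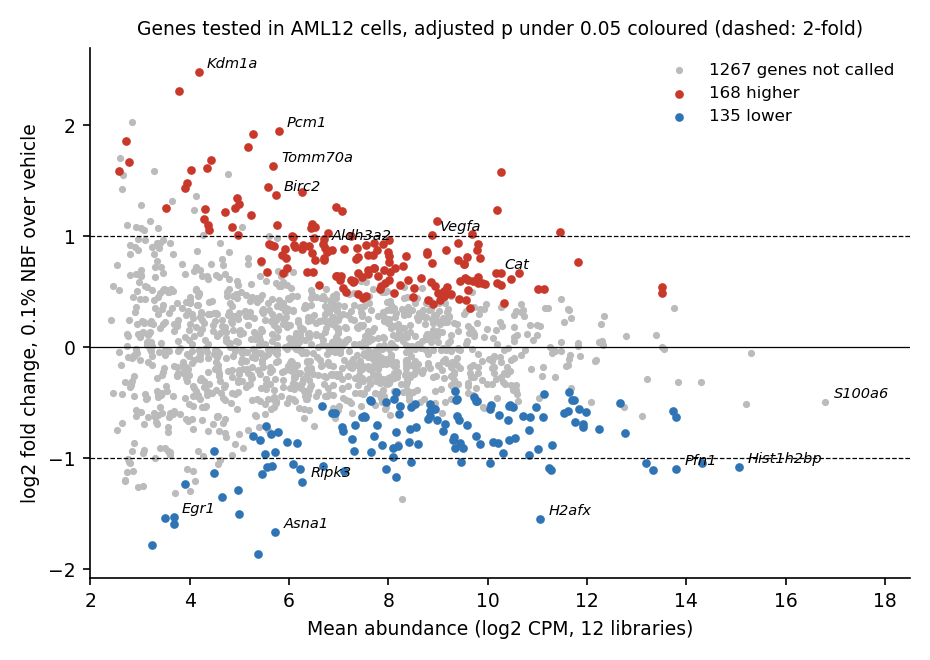
Log2 fold change of 0.1% NBF over vehicle (y axis) against mean abundance in log2 CPM (x axis) for 1570 genes, with 168 higher genes in red and 135 lower genes in blue at an adjusted p under 0.05 and dashed lines at a 2-fold change. The histone gene Hist1h2bp and the actin-binding gene Pfn1 lie among the most abundant genes that fell, and Kdm1a, at the top left, rests on few counts.

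The direction of change went along with the base composition of the transcripts. GC content and length of the longest protein-coding transcript were found for 1556 of the 1570 genes. The genes called higher had a median GC content of 45.0% and a median length of 4017 bases, those called lower 56.0% and 1776 bases, and all tested genes 49.9% and 2824 bases. The genes were put in 5 bins by GC content. In the bin of lowest GC content (34.4 to 44.4%) 77 of 312 genes were called higher and 6 lower. In the bin of highest GC content (55.1 to 69.0%) 5 of 311 were called higher and 77 lower. Across genes, Spearman's rho of the log2 fold change with GC content was -0.41 and with length 0.25 (n = 1556 genes, which share libraries and are not independent). Each library was then set against the mean of the vehicle libraries. In the bin of lowest GC content the medians were 0.21, 0.39 and 0.29 on the log2 scale in the 3 libraries of 0.1% NBF, and 0.13, 0.14 and 0.094 at 0.03% NBF. They were 0.057, 0.075 and -0.013 at 0.006% NBF and 0.043, 0.029 and -0.060 for the vehicle libraries, each set against the other two. In the bin of highest GC content they were -0.26, -0.39 and -0.31 at 0.1% NBF and -0.17, -0.11 and -0.040 at 0.03% NBF. The ranges of 0.1% NBF and vehicle libraries did not overlap in either of these bins.

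**Figure D3:**
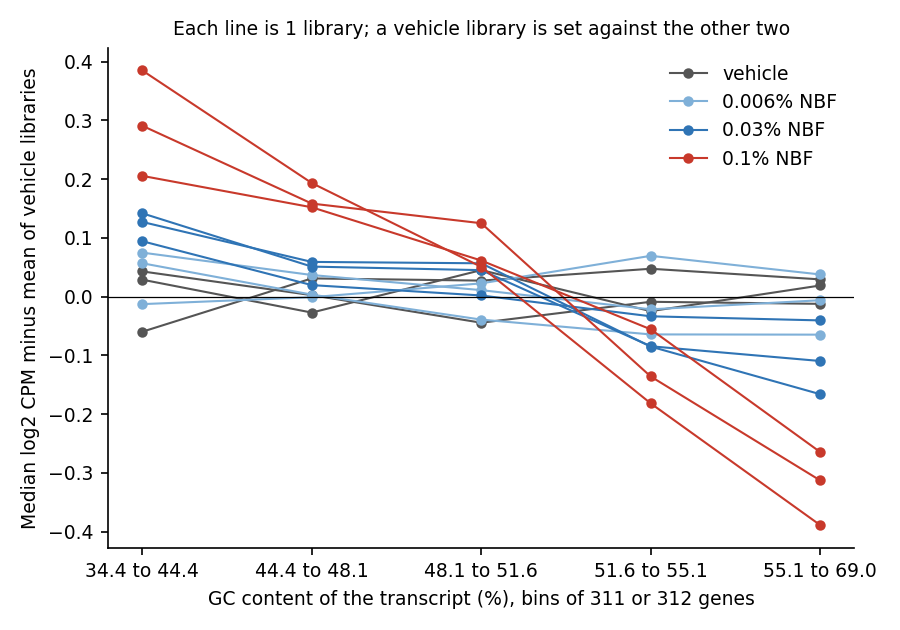
Median log2 CPM difference of each library from the mean of the vehicle libraries (y axis; vehicle libraries against the other two) in 5 bins of genes by GC content of the transcript in percent (x axis), each line 1 library coloured by NBF concentration. The lines of 0.1% NBF fall from between 0.21 and 0.39 in the lowest bin to between -0.26 and -0.39 in the highest, while the vehicle lines stay within -0.060 and 0.048.

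Sequences of genes at both ends of this range show the contrast, each as the first 90 coding bases of its longest coding exon (RNA-sense strand, GENCODE M21 on GRCm38, G and C in capitals). H2afx and Hist2h3b, which fell, were chosen with GC contents of 62.3 and 67.2% over the transcript, and Pcm1, which rose, with one of 41.3%, after their values were seen. The H2afx stretch is in exon 1 at chr9:44334762-44334851 on the plus strand, that of Hist2h3b in exon 1 at chr3:96268694-96268783 on the plus strand and that of Pcm1 in exon 22 at chr8:41293458-41293547 on the plus strand, with 71.1, 73.3 and 38.9% G and C.
H2afx: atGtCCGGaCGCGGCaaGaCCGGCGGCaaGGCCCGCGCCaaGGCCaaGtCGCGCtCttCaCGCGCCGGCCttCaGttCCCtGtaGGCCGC
Hist2h3b: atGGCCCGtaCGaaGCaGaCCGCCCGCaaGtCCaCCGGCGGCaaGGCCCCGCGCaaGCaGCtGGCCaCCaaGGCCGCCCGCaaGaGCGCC
Pcm1: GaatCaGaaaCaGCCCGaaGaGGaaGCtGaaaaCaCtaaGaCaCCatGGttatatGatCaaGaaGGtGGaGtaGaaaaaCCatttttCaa
The bases that a probe pair covers can differ from the transcript as a whole, as in Tomm70a, which rose and whose first such stretch had 70.0% G and C against 40.7% over the transcript, and the probe sequences were not analysed here.

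The steepest rise was that of Kdm1a, the histone H3 lysine 4 demethylase LSD1 (chr4:136550533-136602723, GRCm38). Its values were 10.0, 6.12 and 5.12 CPM in vehicle and 22.1, 40.9 and 45.4 CPM in 0.1% NBF, a mean of 7.09 ± 2.59 against 36.1 ± 12.4 CPM (SD, n = 3). The groups did not overlap, and the log2 fold change was 2.48 ± 0.45 (SE; 95% confidence interval 1.53 to 3.44; adjusted p = 0.00161). Pcm1, a scaffold of the centriolar satellites (chr8:41239759-41334087), had 36.1, 31.2 and 21 CPM in vehicle and 71.5, 124 and 133 CPM in 0.1% NBF. Every 0.1% NBF library was above every vehicle library, with the smallest value in replicate 1, and the log2 fold change was 1.95 ± 0.32 (adjusted p = 0.00123). Tomm70a, an import receptor of the outer mitochondrial membrane, had 32.1, 33.9 and 20.5 CPM in vehicle and 76.8, 98 and 88.5 CPM in 0.1% NBF (log2 fold change 1.63 ± 0.29, adjusted p = 0.00152). In Tomm70a as in Pcm1 and Kdm1a, replicate 1 was the lowest of the 3 libraries of 0.1% NBF. The steepest rises were picked among called genes whose groups did not overlap, so that the lack of overlap in them is not a separate result. Also among the 10 steepest rises whose groups did not overlap were Pros1, the anticoagulant protein S (log2 fold change 2.31, adjusted p = 0.0036), the zinc finger gene Zfp318 (1.69, adjusted p = 0.00161) and Crim1, a transmembrane protein that binds bone morphogenetic proteins (1.62, adjusted p = 0.00723). They also included the enolase gene Eno2 (1.81, adjusted p = 0.0179), Syt11, a synaptotagmin (1.86, adjusted p = 0.0331), and Mpi, which interconverts fructose-6-phosphate and mannose-6-phosphate (1.67, adjusted p = 0.0321). Pros1, Syt11 and Mpi rested on few counts, the lowest library holding 1, 1 and 2. Of the 10, 6 were called whichever of the 6 libraries was left out. Crim1 was lost without 0.1% NBF replicate 2 (adjusted p = 0.0667). Eno2 was lost without vehicle replicate 3, 0.1% NBF replicate 2 or replicate 3 (0.1, 0.103 and 0.0641). Syt11 and Mpi were lost under 5 of the 6 omissions each, with adjusted p-values of 0.192 and 0.186 without vehicle replicate 3.

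The 10 steepest falls whose groups did not overlap included 4 histone genes. H2afx, the H2A variant that is phosphorylated at DNA breaks (chr9:44334715-44336073), had 2969.9, 2784 and 2202 CPM in vehicle and 1158, 738 and 816 CPM in 0.1% NBF. Every 0.1% NBF library was far below every vehicle library, and H2afx held by far the most counts of the 10 genes (log2 fold change -1.55 ± 0.22, 95% confidence interval -2.01 to -1.09, adjusted p = 0.00107). Asna1, the ATPase that delivers tail-anchored proteins to the endoplasmic reticulum, had 66.1, 62.3 and 77.9 CPM in vehicle and 22.9, 13 and 28.9 CPM in 0.1% NBF (log2 fold change -1.66 ± 0.27, adjusted p = 0.00116). Egr1, an immediate early transcription factor, had 16, 20.0 and 20.5 CPM in vehicle and 8.84, 5.19 and 5.31 CPM in 0.1% NBF (log2 fold change -1.53 ± 0.40, adjusted p = 0.0123). That the groups of H2afx, Asna1 and Egr1 did not overlap was likewise a condition of the choice and not a separate result. The other members of the 10 steepest falls were the histone genes Hist1h2be (log2 fold change -1.86, adjusted p = 0.00217), Hist1h3d (-1.78, adjusted p = 0.0409) and Hist1h3a (-1.50, adjusted p = 0.00482) and Mvd, which makes isopentenyl diphosphate in the mevalonate pathway (-1.60, adjusted p = 0.0105). They also included Dctpp1, a pyrophosphatase that clears dCTP (-1.35, adjusted p = 0.0105), Nop56, a core protein of the box C/D small nucleolar ribonucleoproteins (-1.28, adjusted p = 0.0233), and the mitotic kinesin Kif2c (-1.23, adjusted p = 0.0498). Of these 10, 4 were called under each of the 6 omissions. Mvd was lost without vehicle replicate 2 or 0.1% NBF replicate 2 (adjusted p = 0.0733 and 0.057). Egr1 was lost without vehicle replicate 3, 0.1% NBF replicate 2 or replicate 3 (0.0509, 0.0639 and 0.0632), Nop56 under the same 3 omissions (0.128, 0.115 and 0.0978) and Dctpp1 without 0.1% NBF replicate 3 (0.0534). Hist1h3d lost the call under all 6 omissions and Kif2c under 5, with adjusted p-values up to 0.137 and 0.306, and both also lost it with total counts as the scaling (0.0531 and 0.08).

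**Figure D4:**
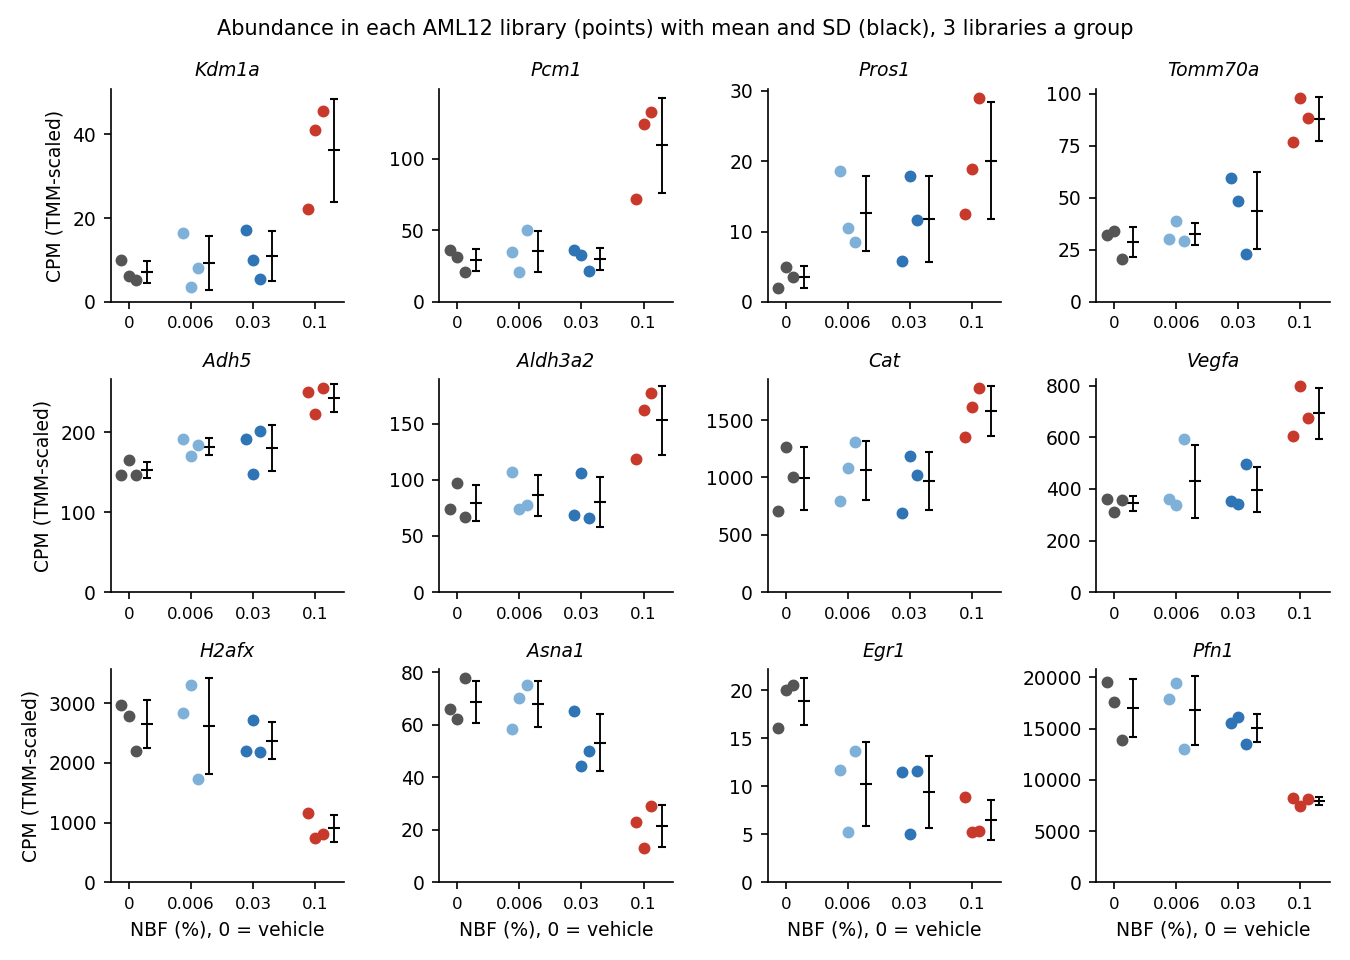
CPM of 12 genes in each AML12 library (y axes, linear from 0) against NBF concentration in percent (x axes, 0 for vehicle), with 3 libraries a group as points and the mean and SD in black. In Kdm1a, Pcm1, Pros1 and Tomm70a the 3 libraries of 0.1% NBF lie above all vehicle libraries, and in H2afx, Asna1, Egr1 and Pfn1 below them. Except for Pfn1, these genes were picked among those whose groups did not overlap.

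A list of 16 genes was put together for formaldehyde clearance, and it also holds aldehyde dehydrogenases of other aldehydes and catalase. Of these 16 genes 6 had counts and 5 were tested, and 3 of the 5 rose (60%, against 10.7% of all genes tested called higher). Adh5, which oxidises the glutathione adduct of formaldehyde, had 146, 165 and 147 CPM in vehicle and 250.4, 223 and 255 CPM in 0.1% NBF (log2 fold change 0.67 ± 0.16, adjusted p = 0.00732). Aldh3a2, a fatty aldehyde dehydrogenase of the endoplasmic reticulum, had 74.1, 97.4 and 67.1 CPM in vehicle and 119, 162 and 178 CPM in 0.1% NBF (log2 fold change 0.93 ± 0.23, adjusted p = 0.00959). Cat, the catalase of peroxisomes, had 711, 1264 and 1001 CPM in vehicle and 1351, 1617 and 1783 CPM in 0.1% NBF (log2 fold change 0.67 ± 0.22, adjusted p = 0.0432). In all 3 genes every library of 0.1% NBF was above every library of vehicle, although for Cat vehicle replicate 2 came close to the lowest 0.1% NBF value. Aldh2, the mitochondrial aldehyde dehydrogenase, had a log2 fold change of -0.25 ± 0.20 and Aldh9a1 one of -0.05 ± 0.20, and neither passed the test. Adh5 was called under every omission of a library of the 6. Aldh3a2 was lost without vehicle replicate 3 or 0.1% NBF replicate 3 (adjusted p = 0.0563 and 0.0574) and Cat without vehicle replicates 1 or 3 or 0.1% NBF replicates 2 or 3, with adjusted p-values up to 0.192.

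For each list the 3 members with the smallest p were named, and further members named here were chosen after their values were seen. Counts are of the members tested, often a small part of a list. Tested were 12 of 44 immediate early, 15 of 36 heat shock and 11 of 51 translation initiation factor genes. For cytosolic and mitochondrial ribosomal proteins they were 6 of 89 and 6 of 78. Of 12 immediate early genes tested, none rose and Egr1 fell, with a list median of -0.20 (range -1.53 to 0.92). Fosl1 (-0.48, adjusted p = 0.0864) and Dusp6 (-0.48, adjusted p = 0.127), the next smallest in p, and Jun (log2 fold change -0.03 ± 0.21) and Atf3 (0.03 ± 0.41) did not pass. Among 15 heat shock genes 1 fell, the small chaperone gene Hspb1, at 357, 372 and 393 CPM in vehicle and 285, 245 and 257 CPM in 0.1% NBF (log2 fold change -0.51 ± 0.15, adjusted p = 0.022). None rose, and 8.33% of the immediate early and 6.67% of the heat shock genes were called, against 19.3% of all genes. The heat shock list ranged from -0.51 to 0.45 with a median of -0.11, or 0.09 with total counts as the scaling. Hsp90aa1 had a log2 fold change of 0.10 ± 0.13, Hspd1 one of 0.12 ± 0.49, Fkbp5 one of -0.29 ± 0.13 and Fkbp4 one of -0.27 ± 0.12. Hspb1 was lost with total counts (adjusted p = 0.118) and without vehicle replicates 2 or 3 or 0.1% NBF replicates 2 or 3, with adjusted p-values up to 0.0928.

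The unfolded protein and integrated stress response list had 5 members higher and 1 lower of 21 tested (28.6% called, against 19.3% of all genes), with a median of 0.20. Vegfa, an angiogenic factor, had 363, 312 and 357 CPM in vehicle and 606, 799.8 and 674 CPM in 0.1% NBF (log2 fold change 1.01 ± 0.20, adjusted p = 0.00257). The 5 genes that rose were Vegfa, the endoplasmic reticulum chaperones Canx (0.52, adjusted p = 0.0105) and Hsp90b1 (0.79, adjusted p = 0.031), the degradation factor Edem1 (0.57, adjusted p = 0.0203) and the RNA-sensing kinase Eif2ak2 (0.56, adjusted p = 0.0293). Phgdh, the entry enzyme of serine synthesis, fell (-0.96, adjusted p = 0.00152). The stress-induced factors Atf4, Ddit3 and Trib3 had log2 fold changes of 0.17, 0.30 and 0.20 and were not called, nor was the chaperone Hspa5 (0.36). Of these calls, those of Vegfa and Phgdh held under each omission of 1 library. Canx was lost without vehicle replicate 1 or 0.1% NBF replicate 2 (adjusted p up to 0.0824) and Edem1 without vehicle replicate 2 or 0.1% NBF replicates 2 or 3 (adjusted p up to 0.139). Hsp90b1 was lost without vehicle replicates 1 or 2 or 0.1% NBF replicates 2 or 3 (adjusted p up to 0.131) and Eif2ak2 without vehicle replicates 1 or 3 or 0.1% NBF replicates 2 or 3 (adjusted p up to 0.148). Of the 28 glutathione and Nrf2 target genes tested, 1 rose and 5 fell (21.4% called, near the 19.3% of all genes), with a median of 0.02. The gene that rose was Gclc, the catalytic subunit that makes gamma-glutamylcysteine (0.68, adjusted p = 0.0192). Those that fell were the glutathione S-transferases Gstp1 (-0.86, adjusted p = 0.00152) and Gsta1 (-0.96, adjusted p = 0.022), the glutathione peroxidases Gpx4 (-0.74, adjusted p = 0.00747) and Gpx1 (-0.62, adjusted p = 0.0464) and the pentose phosphate enzyme Taldo1 (-0.45, adjusted p = 0.0263). Gstp1 and Gsta1 have near-identical copies, so that their values are uncertain. Hmox1 (0.88, adjusted p = 0.188) and Srxn1 (-0.29, adjusted p = 0.544), genes that Nrf2 activators usually induce, were not called. Gstp1 and Gpx4 were called under each omission. Gclc was lost without vehicle replicates 1 or 2 or 0.1% NBF replicates 2 or 3 (adjusted p up to 0.0737) and Gsta1 without vehicle replicates 1 or 3 or 0.1% NBF replicates 2 or 3 (adjusted p up to 0.0992). Taldo1 was lost without vehicle replicates 1 or 3 or 0.1% NBF replicates 2 or 3 (adjusted p up to 0.145) and Gpx1 without vehicle replicates 1, 2 or 3 or 0.1% NBF replicates 2 or 3 (adjusted p up to 0.195), and both also with total counts as the scaling (0.178 and 0.18).

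Genes of the DNA damage response moved in both directions. Of 23 p53 and DNA damage response genes tested, 2 rose and 4 fell (26.1% called, against 19.3% of all genes), with a median of -0.27. The median was -0.21 to -0.15 with 1 of the 6 libraries left out, -0.13 without the 4 libraries under 1000000 counts and -0.10 with GC content and length fitted in each library. Besides H2afx, the genes that fell were Phlda3 (1182, 1216 and 1052 CPM in vehicle and 654, 593 and 640.2 CPM in 0.1% NBF, log2 fold change -0.87, adjusted p = 0.00122), the cell cycle inhibitor Cdkn1a (-0.83, adjusted p = 0.00508) and Trp53 itself (-0.53, adjusted p = 0.0179). Those that rose were Rrm2b, the p53-inducible ribonucleotide reductase subunit (0.83, adjusted p = 0.00446), and Trp53bp1 (0.64, adjusted p = 0.0468), whereas Mdm2 (-0.41, adjusted p = 0.2), Bax (-0.28, adjusted p = 0.446) and Gadd45a (-0.27, adjusted p = 0.408) did not pass. Trp53 was lost without vehicle replicates 1 or 2 or 0.1% NBF replicates 2 or 3 (adjusted p up to 0.0829) and with total counts (0.0831), and Trp53bp1 under all 6 omissions (adjusted p up to 0.177), while the other 4 calls held under each. In the list of crosslink and nucleotide excision repair, 1 of 16 rose and 1 fell (12.5% called, against 19.3% of all genes), and 4 fell without 0.1% NBF replicate 1 and 3 with GC content and length fitted. The gene that rose was Fancd2, the Fanconi anemia protein that is ubiquitinated at crosslinks (0.92, adjusted p = 0.0465). Fancd2 was lost without vehicle replicates 2 or 3 or 0.1% NBF replicates 2 or 3 (adjusted p up to 0.251), and for this gene vehicle replicate 1 was above 0.1% NBF replicate 1.

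Of 17 chromatin modifiers tested, 6 were higher and 2 lower (47.1% called, against 19.3% of all genes), with a median of 0.09, and 4 to 6 were higher when 1 library was left out. Besides Kdm1a, the histone demethylases Kdm5b (0.89, adjusted p = 0.0034), Kdm5a (0.62, adjusted p = 0.00424) and Kdm3a (0.63, adjusted p = 0.0408), the Polycomb subunit Suz12 (0.68, adjusted p = 0.049) and the deacetylase Hdac2 (0.68, adjusted p = 0.00679) rose. The acetyltransferase gene Kat2a, at 271, 192 and 241 CPM in vehicle and 143, 136 and 120.4 CPM in 0.1% NBF (-0.80, adjusted p = 0.00404), and the histone variant gene H2afz (-1.07, adjusted p = 0.00405) fell. Kdm3a was lost without vehicle replicates 1 or 3 or 0.1% NBF replicates 2 or 3 (adjusted p up to 0.196) and Suz12 without vehicle replicates 1, 2 or 3 or 0.1% NBF replicates 2 or 3 (adjusted p up to 0.254), and the other 6 calls held under each omission. The replication-dependent histone genes, a list that was put together after their values had been seen, had 16 of 21 tested members lower (76.2%, against 8.6% of all genes called lower) and none higher, with a median of -1.04. The 23 histone genes with counts held 12, 10.2 and 8.75% of all counts in vehicle and 6.55, 5.48 and 5.73% in 0.1% NBF, and no test is given because the list was put together with these values known. The share was between 9.43 and 12.2% in the 4 libraries under 1000000 counts, none of them of 0.1% NBF. It was 10.8, 12.2 and 8.04% at 0.006% NBF and 9.43, 10.5 and 9.44% at 0.03% NBF. Thus 0.006% NBF replicate 3 lay below all vehicle libraries and above those of 0.1% NBF. In vehicle and at 0.006% NBF the share was lowest in the latest lysate (94 and 91), at 0.03% NBF in the earliest (86). The part of lysate order in it was not tested. Hist1h2bp had 48667, 38548 and 34688 CPM in vehicle and 22237, 17040.2 and 18282 CPM in 0.1% NBF (-1.08, adjusted p = 0.00249). Hist2h3b had 29250.1, 23529.5 and 19429 CPM in vehicle and 13761, 10134 and 11164 CPM in 0.1% NBF (-1.04, adjusted p = 0.00217), and in both genes all vehicle libraries were above all libraries of 0.1% NBF. Histone genes of 1 type are near-identical in their coding sequence and all 21 tested members had counts that were not whole numbers, so that the values of single members are uncertain. Of 35 cell cycle genes, none rose and 3 fell (8.57%, near the 8.6% of all genes called lower; 0 without 0.1% NBF replicate 3), the helicase subunit Mcm2 (-0.66, adjusted p = 0.00903), the mitotic kinase Plk1 (-0.88, adjusted p = 0.00974) and Cdk4 (-0.50, adjusted p = 0.0295), with a list median of -0.16 (0.03 with total counts). Cdk4 was lost under each of the 6 omissions, with adjusted p-values up to 0.0867, and with total counts (0.116), and Mcm2 and Plk1 without 0.1% NBF replicate 3 (0.0645 and 0.0517).

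Of 16 apoptosis genes, 1 rose and 3 fell (25% called, against 19.3% of all genes). Ripk3, the kinase of necroptosis, had 128, 86.8 and 88.6 CPM in vehicle and 46.2, 43.5 and 37.8 CPM in 0.1% NBF (log2 fold change -1.21 ± 0.26, adjusted p = 0.00432). The pro-apoptotic genes Bid (-0.69, adjusted p = 0.00723) and Bad (-0.76, adjusted p = 0.0105) also fell, while Bcl2l11, which encodes the pro-apoptotic protein Bim, rose (0.89, adjusted p = 0.0154). For Ripk3 and Bid the call held under each of the 6 omissions, whereas Bad was lost without 0.1% NBF replicate 2 (adjusted p = 0.057) and Bcl2l11, whose groups overlapped, without vehicle replicates 1 or 2 or 0.1% NBF replicates 2 or 3 (adjusted p up to 0.109). Of 24 NF-kB and cytokine genes 1 was called (4.17%, against 19.3% of all genes), Birc2, an inhibitor of apoptosis and ubiquitin ligase, which had 30.1, 32.8 and 32.3 CPM in vehicle and 69.1, 91.5 and 89.7 CPM in 0.1% NBF (log2 fold change 1.38 ± 0.30, adjusted p = 0.00416). Without the 4 libraries under 1000000 counts, 1 gene of this list was higher and 4 were lower. The NF-kB targets Nfkbia (0.50, adjusted p = 0.311), Tnfaip3 (-0.26, adjusted p = 0.325), Relb (-0.54, adjusted p = 0.0904), Icam1 (-0.75, adjusted p = 0.0975) and Cxcl1 (0.28, adjusted p = 0.393) did not pass the test.

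A list of 95 electron transport chain genes had 16 tested. Of these 16 subunits none rose and 3 fell (18.8% called, near the 19.3% of all genes), and 0 to 2 fell with 1 library left out. These were Atp5e of the ATP synthase (-0.63, adjusted p = 0.0242) and Ndufb6 (-0.58, adjusted p = 0.0334) and Ndufv1 (-0.48, adjusted p = 0.0413) of complex I, with a median of -0.15 (0.05 with total counts). All 3 lost the call with total counts (0.0766, 0.114 and 0.206). Atp5e was lost without vehicle replicates 1 or 2 or 0.1% NBF replicates 1 or 2 (adjusted p up to 0.0758) and Ndufb6 without vehicle replicates 1 or 2 or 0.1% NBF replicates 1 or 2 (adjusted p up to 0.129). Ndufv1 was lost under all 6 omissions (adjusted p up to 0.109). Of 6 cytosolic ribosomal protein genes 2 fell (33.3%, against 8.6% of all genes called lower, and 0 to 2 fell with 1 library left out). Rplp0, with 17002, 16411 and 15158 CPM in vehicle and 12106, 8367 and 12193 CPM in 0.1% NBF (-0.57, adjusted p = 0.0233), and Rps27l (-0.54, adjusted p = 0.0464) fell, and both were lost with total counts (adjusted p = 0.0811 and 0.165). Rplp0 was lost without vehicle replicates 1 or 2 or 0.1% NBF replicate 2 (adjusted p up to 0.118) and Rps27l without vehicle replicates 1 or 2 or 0.1% NBF replicates 1, 2 or 3 (adjusted p up to 0.135). Mrps34 was the 1 of 6 mitochondrial ribosomal protein genes called (16.7%, near the 19.3% of all genes), with a log2 fold change of -0.65 (adjusted p = 0.00482). Eif4b, which helps unwind mRNA leaders, was the 1 of 11 translation initiation factors called (9.09%, against 19.3% of all genes). It had 621, 743 and 581 CPM in vehicle and 956, 1215 and 1244 CPM in 0.1% NBF (0.81, adjusted p = 0.00293). Among 5 genes of sirtuins and mitochondrial biogenesis 1 was called (20%, near the 19.3% of all genes), the forkhead factor Foxo3. It rose (0.73, adjusted p = 0.00849, or 0.057 without 0.1% NBF replicate 3). The mitochondrial transcription factor Tfam (-0.53, adjusted p = 0.0552) and Pparg (0.44, adjusted p = 0.264) did not pass.

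Of the hepatocyte markers 8 were tested, and 2 of them fell (25% called, against 19.3% of all genes), with a median of -0.65. None fell without vehicle replicate 1 or without 0.1% NBF replicates 2 or 3, and 5 fell without 0.1% NBF replicate 1. In a bulk lysate, fewer cells of a type and less RNA per cell cannot be told apart, and the libraries give shares of ligated probes rather than amounts per cell. Krt8, an epithelial keratin, had 4182, 3312 and 3386 CPM in vehicle and 2789.6, 2116 and 2381 CPM in 0.1% NBF (-0.58, adjusted p = 0.0128). Hnf4a, a master regulator of hepatocyte genes, had 495, 358 and 593 CPM in vehicle and 379.8, 203 and 202 CPM in 0.1% NBF (-0.87, adjusted p = 0.02), and its groups overlapped, since 0.1% NBF replicate 1 was above vehicle replicate 2. The fetal marker Afp (-1.25, adjusted p = 0.0872) and the transthyretin gene Ttr (-0.87, adjusted p = 0.314) did not pass, the latter with 110.2, 501 and 461 CPM in vehicle, lowest in the shallow replicate 1. Krt8 was lost without vehicle replicate 1 or 0.1% NBF replicates 2 or 3 (adjusted p up to 0.0776) and Hnf4a without vehicle replicates 1 or 3 or 0.1% NBF replicates 2 or 3 (adjusted p up to 0.115), and both with total counts (0.059 and 0.0576). Among markers of other cells, the cholangiocyte genes Krt19 (0.36, adjusted p = 0.272) and Spp1 (0.21, adjusted p = 0.621), the fibroblast gene Vim (0.10, adjusted p = 0.745) and the macrophage gene Cd68 (0.13, adjusted p = 0.877) were tested and none was called. Their lists summed to 4197 to 6030 CPM in vehicle and 5006 to 7912 CPM in 0.1% NBF for cholangiocytes and to 745 to 910.3 and 874 to 1157 CPM for stellate cells and fibroblasts. They summed to 3.74 to 12.8 and 14.8 to 15.4 CPM for macrophages and leukocytes and to 1.08 to 5.61 and 1.93 to 3.87 CPM for endothelium. The macrophage sum, which rested on Cd68 and 3 further genes, did not overlap between the groups and was near background in both, and its part in any result was not tested.

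Of the 10 genes with the most counts, 4 fell and 6 were not called, where 8.6% of all genes tested were called lower. Pfn1, which encodes the actin-binding protein profilin, had 19505, 17597 and 13894 CPM in vehicle and 8233, 7469 and 8120.2 CPM in 0.1% NBF, with every library of 0.1% NBF below every other AML12 library (-1.10, adjusted p = 0.00116). Besides Pfn1, Hist1h2bp and Hist2h3b, the nucleoside diphosphate kinase gene Nme1 fell (-0.63, adjusted p = 0.0439) and was lost without vehicle replicates 1 or 2 or 0.1% NBF replicates 2 or 3 (adjusted p up to 0.163) and with total counts (0.102). S100a6 (-0.49, adjusted p = 0.06), the secreted chaperone gene Clu (-0.51, adjusted p = 0.253), the endoplasmic reticulum chaperones Calr (-0.05, adjusted p = 0.877) and Hspa5 (0.36, adjusted p = 0.18) and Krt18 (-0.31, adjusted p = 0.252) were among those not called. The 10 genes with the most counts in each library, which need not be the same, held 35.2, 33.8 and 34.7% of the counts in vehicle and 32, 27.9 and 28.7% in 0.1% NBF (exact two-sided permutation test, p = 0.1).

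Groups of genes outside these lists were gathered after their values had been seen, and their counts are therefore descriptions. Of 11 glycolysis genes tested 6 were higher (54.5%, against 10.7% of all genes called higher), with a median of 1.00. Tpi1, triosephosphate isomerase, had 2467, 2287 and 1487 CPM in vehicle and 3034, 4391 and 5403 CPM in 0.1% NBF (1.04, adjusted p = 0.00416). The others called were Eno2, Pgm2 (1.26, adjusted p = 0.00152), the phosphofructokinase Pfkl (1.19, adjusted p = 0.0441), Pgam1 (1.06, adjusted p = 0.0464) and the hexokinase Hk1 (0.69, adjusted p = 0.0158). Of 12 hypoxia-responsive genes 8 were higher (66.7%, against 10.7% of all genes called higher) and all 12 had positive log2 fold changes (0.23 to 1.58). Ndrg1, a stress-inducible gene, had 685, 1032 and 569 CPM in vehicle and 1044, 2839.7 and 2984 CPM in 0.1% NBF (1.58, adjusted p = 0.00241). Arnt, the partner of the hypoxia-inducible factors, had 44.1, 54 and 51.7 and 91.6, 172 and 141 CPM (1.40, adjusted p = 0.00152). Hif1a itself was not called (0.35, adjusted p = 0.156). With 1 library left out between 2 and 7 glycolysis genes and between 4 and 8 genes of the hypoxia list were higher, in both lists lowest without 0.1% NBF replicates 2 or 3. Tpi1, Pgm2, Ndrg1 and Arnt were called under each omission, and the groups overlapped for Pfkl. Hk1 was lost without vehicle replicates 1 or 2 or 0.1% NBF replicates 2 or 3 (adjusted p up to 0.089), and Pfkl and Pgam1 under 5 omissions each (adjusted p up to 0.248 and 0.235). Vegfa and Kdm3a are in the hypoxia list as well as in lists above. Of 14 sterol genes 4 were lower (28.6%, against 8.6% of all genes called lower) and none higher. They included Mvd, the oxysterol receptor gene Nr1h2 (-0.82, adjusted p = 0.00116) and Dhcr7, the last enzyme of cholesterol synthesis (-0.84, adjusted p = 0.0253). Nr1h2 was called under each omission, and Dhcr7 was lost without vehicle replicates 1 or 2 or 0.1% NBF replicates 1 or 3 (adjusted p up to 0.0826) and with total counts (0.0695).

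**Figure D5:**
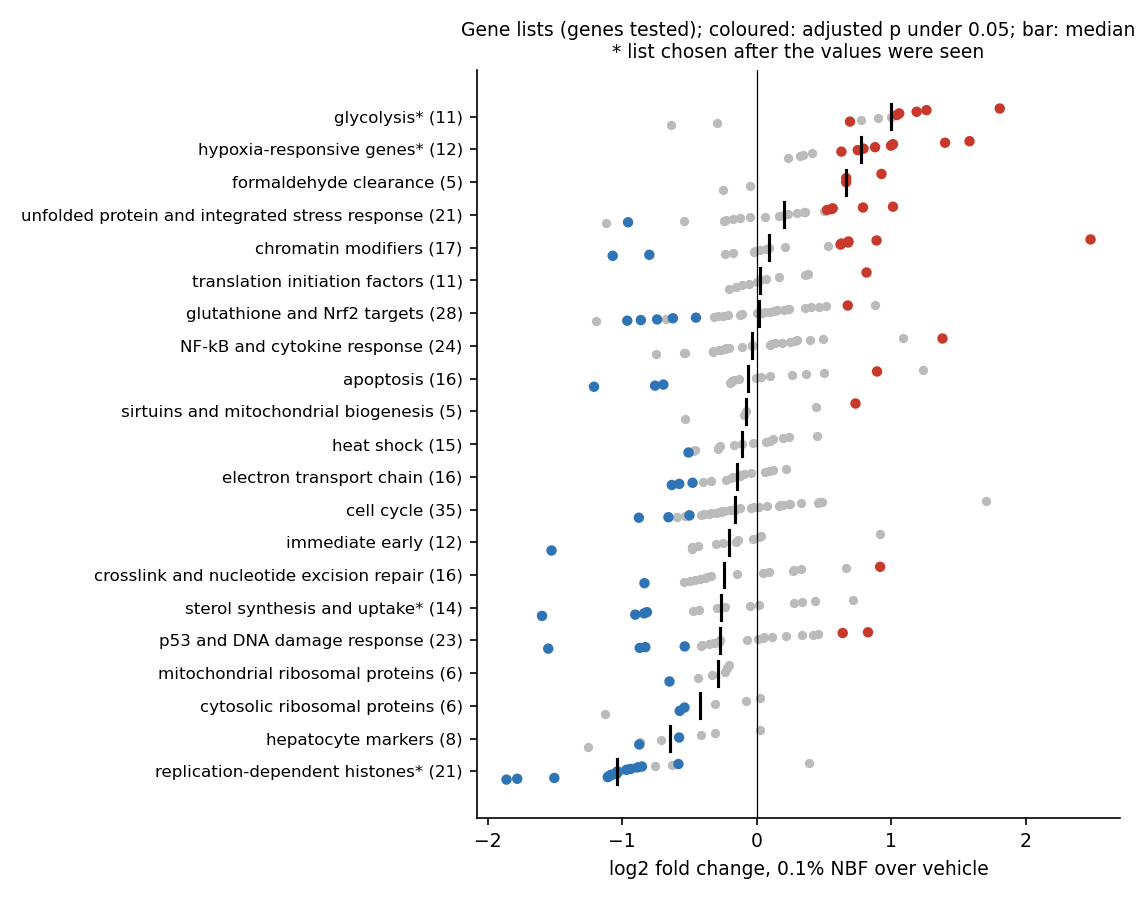
Log2 fold change of 0.1% NBF over vehicle (x axis) for the tested members of each gene list (y axis, number tested in parentheses), with genes at an adjusted p under 0.05 in red where higher and blue where lower and a black bar at the median. List medians run from -1.04 for the replication-dependent histones to 1.00 for glycolysis, and the asterisks mark lists chosen after the values were seen.

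Because composition and group moved together, the comparison was repeated with GC content and length fitted in each library, which was chosen once the values had been seen. This fit called 155 of the 1570 genes tested, 73 higher and 82 lower, where the fit without it called 168 higher and 135 lower. The list counts below are to be read beside this smaller total. Of the 155 genes 113 were among the 303, and of 41 DEGs 34 were among the 76. Of the 10 steepest rises 9 were still called (Syt11 was not, adjusted p = 0.0708) and of the 10 steepest falls 7 (not Hist1h3a, 0.0866, Dctpp1, 0.111, or Kif2c, 0.0597). Kdm1a kept a log2 fold change of 2.48 (adjusted p = 0.00598) and H2afx one of -1.18 (0.00598). Among the histones 4 of 21 rather than 16 remained lower, with a median of -0.21 in place of -1.04. Among chromatin modifiers 1 rather than 6 was higher and 1 rather than 2 lower. For formaldehyde clearance 2 rather than 3 were higher (Cat was lost, adjusted p = 0.0949), for the unfolded protein list 1 rather than 5 was higher, and for glycolysis and the hypoxia list 6 and 5 were higher. Other calls named above that did not pass were those of Gpx4, Gpx1, Taldo1, Gclc, Hspb1, Canx, Hsp90b1, Edem1, Eif2ak2, Rrm2b, Trp53, Trp53bp1, Fancd2, Bad, Bcl2l11, Mcm2, Plk1, Cdk4, Kdm5b, Kdm5a, Kdm3a, Suz12, Hdac2, Kat2a, Krt8, Atp5e, Ndufb6, Ndufv1, Rplp0, Rps27l, Mrps34, Pgam1, Dhcr7 and Hist2h3b. Whether composition has a part in any of these differences was not tested.

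Whether lower concentrations gave a like response was asked next. No gene was called between 0.006% NBF and vehicle or between 0.03% NBF and vehicle by edgeR's quasi-likelihood test or by DESeq2's Wald test, with 28 and 62 of 1570 genes at an unadjusted p under 0.05 by the former. Against the mean of 0.006% and 0.03% NBF, 0.1% NBF had 299 genes called (19%), 162 higher (10.3%) and 137 lower (8.73%). That comparison shares the 3 libraries of 0.1% NBF with the one against vehicle. Kdm1a had 16.3, 3.52 and 8.12 CPM at 0.006% NBF and 17.3, 10.1 and 5.36 CPM at 0.03% NBF, so that 1 library at 0.006% and 2 at 0.03% lay above all vehicle libraries and all 6 lay below those of 0.1% NBF. H2afx had 2826, 3302 and 1732 and 2195, 2724 and 2182 CPM, all above the libraries of 0.1% NBF, and Pcm1 had 35, 21.1 and 50.0 and 36.4, 32.5 and 21.5 CPM, all below them. Egr1 differed in this respect, with 11.7, 5.28 and 13.7 CPM at 0.006% NBF and 11.5, 5.04 and 11.6 CPM at 0.03% NBF, every one below the vehicle libraries. These values rest on few counts, and 0.006% NBF replicates 1 and 2 and 0.03% NBF replicate 1 were shallow libraries. The log2 fold change of Egr1 against the lower concentrations was -0.56 (adjusted p = 0.324). For Kdm1a that value was 1.94 (adjusted p = 0.0015) and for H2afx -1.46 (0.000449). Pros1, in contrast, had 18.7, 10.6 and 8.55 CPM at 0.006% NBF and 5.75, 17.9 and 11.6 CPM at 0.03% NBF, all above the vehicle libraries, and was not called against the lower concentrations (0.71, adjusted p = 0.174). A linear trend over 0, 0.006, 0.03 and 0.1% NBF called 437 genes (27.8%), 238 rising (15.2%) and 199 falling (12.7%) with concentration, on a scale where the libraries of 0.1% NBF lie far from all others.

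For genes that were not called, the intervals show what could have been missed. The 95% confidence interval of the log2 fold change lay within a 2-fold change in either direction for 876 of the 1267 genes not called (69.1%). Over all genes tested it did so for 977 of 1570 (62.2%). Called or not, this held for 77.5% of the 1143 genes at 32 CPM or more and for 21.3% of the 427 below. In the latter the median half-width of the interval was 0.85 on the log2 scale. Among the immediate early genes, the interval of Jun was -0.48 to 0.42 and that of Atf3 -0.83 to 0.89. Among the heat shock genes that of Hsp90aa1 was -0.17 to 0.38 and that of Hspd1 -0.90 to 1.15. A 2-fold change lay outside the interval for Jun, Atf3 and Hsp90aa1, and for Hspd1 a 2-fold rise lay inside it.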

How the data were processed

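TempO-Seq libraries of 12 AML12 lysates were analysed, 3 for each of vehicle, 0.006%, 0.03% and 0.1% NBF, grouped by the treatment named in the labels. The authors deposited estimated counts per gene for 24540 gene symbols, of which 2658 had a count in these libraries (93.6% of values above 0 lay within 0.01 of a whole number), and a table of log2 values that held log2 of the estimated count plus 1 for 1659 genes and was not divided by library size. The submitters' processing notes list CASAVA 1.8.2, Partek and STAR 2.5.3a without saying which step used which, and the counting settings for the panel are not given in the sources used here. Counts that are split between near-identical genes or probes make such genes uncertain, and a count depends on ligation as well as on RNA.

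The estimated counts were rounded to whole numbers, and 1570 genes passed the filterByExpr function of edgeR 4.0.16 (R 4.3.3) with its default settings on the 4 groups. Counts were scaled by TMM and fitted with the quasi-likelihood test of edgeR on all 12 libraries with 1 mean per group, so that the 4 groups share the estimate of the spread (common biological coefficient of variation 17.4%). P-values were adjusted by Benjamini-Hochberg over all genes tested. DEGs were genes with an adjusted p under 0.05 whose means differed at least 2-fold. Standard errors were the log2 fold change divided by the square root of F. Total counts ran from 444288 to 2325990, so that low genes are less precise, and library values were compared with exact permutation tests. GC content and length were those of the longest protein-coding transcript (GENCODE M21, GRCm38).

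On counts simulated from these libraries (1563 genes), the fit recovered 75% of 2-fold and 98% of 4-fold changes between 0.1% NBF and vehicle. Of its calls on these counts 3.35% were false. The share of false calls under a shift with GC content or with an unlike replicate was not tested. The genes named were the 10 largest rises and 10 largest falls among called genes without overlap between the groups, the 3 members of each list with the smallest p, the 10 genes with the most counts, Kdm1a, H2afx and the cell type markers. The samples, lists and rules were chosen with earlier results of these data known, and other genes named were chosen after their values were seen. Some genes that the rules pick are not reported here. The alternatives used DESeq2 1.42.0 and limma 3.58.1 as well as other scalings, filters and sets of libraries. Libraries of other tissues were not used here.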

Additional observations from a re-analysis of the deposited data

How the results depend on the processing

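The number of genes called between 0.1% NBF and vehicle, 303 with the settings reported, lay between 230 and 364 with other size factors, total counts, filters, a robust fit, the 6 libraries alone, thinning to the smallest library, DESeq2's Wald test (328) or limma on log2 CPM (271). It was 155, with 41 DEGs, when GC content and length were fitted in each library. It was 0, also for the DEGs, when limma was run on the deposited log2 values, which are not divided by library size (37 genes at an unadjusted p under 0.05). Leaving out 1 of the 12 libraries gave 135 to 360 called genes, 39 to 127 DEGs, 109 to 374 genes called against the lower concentrations and 223 to 475 in the trend, the lowest of each without 0.1% NBF replicates 2 or 3. Against the lower concentrations 299 genes were called with the settings reported, 198 with GC content and length fitted (80 of them higher) and 118 without the 4 libraries under 1000000 counts. For the trend these 2 alternatives gave 284 and 282 in place of 437, and the rank of the concentration in place of its value gave 256. Without the 4 shallow libraries the comparison with vehicle called 218 genes, 204 of them shared, and 57 DEGs. With total counts as the scaling 16 rather than 10 of 24 list medians were above 0.

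Of 81 named genes, limma on the deposited log2 values turned the sign of 9 called falls, to log2 differences of 0.12 for Hspb1, 0.13 for Cdk4, 0.051 for Krt8, 0.00088 for Atp5e, 0.051 for Ndufb6, 0.15 for Ndufv1, 0.039 for Rplp0, 0.092 for Rps27l and 0.010 for Nme1, none of them called, and Atp5e also had 0.022 with GC content and length fitted. That last alternative ended 24 further calls of named genes. The fits on GC content and length, without the shallow libraries and with library size as a covariate were chosen after seeing the data. No paired analysis was possible because the labels of the AML12 lysates carry no replicate number that groups share. Depth limits what was seen below 32 CPM, where 21.3% of intervals lay within a 2-fold change, and the count of intervals within it, 977, was 826 to 1006 with 1 library left out. The causes of these shifts were not tested.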
